A study of Mus musculus with 8 samples.

Results

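The genes described here encode the nuclear subunits of the mitochondrial respiratory chain, that is, complexes I to IV, cytochrome c and the ATP synthase, together with 8 assembly factors of complex I whose symbols begin with Ndufaf. They were chosen by symbol and not by any measured value: every gene beginning with Ndufa, Ndufb, Ndufc, Ndufs, Ndufv, Uqcr, Cox4 to Cox8 or Atp5, and Sdha, Sdhb, Sdhc, Sdhd, Cyc1 and Cycs. The arrays carried 128 probes for 95 such genes. A gene was tested if 4 or more of the 8 arrays found a probe well above background, which left 92 genes and 123 probes, out of 14476 genes tested in all. The 92 were well above background on all 8 arrays. The remaining genes, Cox7b2, Cox8b and Cox8c, which encode tissue-restricted isoforms of cytochrome c oxidase, were not well above background on any array.

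The cells were primary cultures of kidney proximal tubule cells from male C57/BJ mice aged 6 weeks. Tubules pelleted from trypsin-digested cortex were grown to confluence, so other cells of the cortex may have been carried along, and the comparison was made in serum-free DMEM. The control group received the solvent DMSO (4 samples), and the treated group received 1 uM GW4064, a synthetic agonist of the bile acid receptor FXR (4 samples), both for 24 h. Each sample was hybridised to 1 one-colour array. Whether samples of 1 group stem from different animals or cultures is not stated in the labels. The p-values therefore reflect the spread among these samples alone, which may be technical.

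Complexes I and II pass electrons from NADH and succinate to ubiquinone, complex III passes them on to cytochrome c, and complex IV (cytochrome c oxidase) hands them to oxygen. The proton gradient built by complexes I, III and IV drives the ATP synthase. Proximal tubule cells are rich in mitochondria and depend on this oxidative pathway to power reabsorption, and several subunits of complex IV exist as paired isoforms that differ between tissues or with oxygen supply.

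The label of the treated group was borne out by the FXR targets Slc51a and Slc51b, which together form a basolateral bile acid transporter and were 120.6-fold and 10.6-fold higher with GW4064. Between 61.4% and 65.7% of probes on an array were well above background, and no spot was saturated. The arrays lay on 2 slides, each with 2 samples of each group. DMSO samples held the first places on both slides, so place and treatment cannot be told apart. Some cell type markers moved with treatment, counted as rising or falling at limma's adjusted p under 0.05. By the same rule 11.8% of all genes tested rose and 8.95% fell. Of 19 proximal tubule markers 12 rose and 2 fell, and their summed signal was 125 to 166 times the array's 75th percentile with DMSO and 162 to 193 times with GW4064. Of 9 leukocyte markers 3 rose and 0 fell (summed signal 11.0 to 12.4 with DMSO, 14.2 to 16.4 with GW4064), of 7 endothelial markers 3 rose and 0 fell (5.20 to 6.12, and 6.00 to 6.74), and of 9 fibroblast and pericyte markers 3 rose and 0 fell (57.7 to 73.7, and 79.0 to 95.6). Csf1r and Itgam were the brightest leukocyte markers, with log2 fold changes of 0.75 and 0.03, so the leukocyte sum rests largely on Csf1r. Of 9 markers of other nephron segments and podocytes 1 rose and 2 fell (8.96 to 11.0, and 10.1 to 11.7). Markers that did not pass the filter included Slc22a8, Slc12a1, Calb1, Atp6v1b1, Tek and Lum. The part of cell composition in the values that follow was not tested, and in RNA from whole cultures fewer cells of a type and less RNA per cell cannot be told apart.

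Transcripts of the respiratory chain changed little with GW4064. In limma, with Benjamini-Hochberg adjustment over all 14476 genes and a threshold of 0.05, 4 of the 92 genes fell, 0 rose and 88 did not pass. Among all genes tested 20.8% passed, 11.8% higher and 8.95% lower. The 4 that fell were Ndufs4 of complex I, Cycs (cytochrome c), and Cox7a1 and Ndufa4l2, which both encode isoforms of complex IV subunits. Without adjustment, 12 of the 92 members had limma's p under 0.05, of which 11 were lower and 1 was higher. Of all 14476 genes tested 4973 did, 2168 lower and 2805 higher, which is a larger share than among the members. The median log2 fold change of the 92 genes was -0.02, against 0.01 over all genes, and the median size of the change regardless of sign was 0.0396, against 0.102 over all genes.

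Small changes were also well bounded. The 95% interval of the log2 fold change lay within 1.2-fold in either direction for 83 of the 92 genes (90.2%), against 52.4% of all genes tested. The median standard error of the 92 was 0.0480 on the log2 scale, against 0.0587 over all genes. The probes of the 92 were also much brighter, with a median log2 level of 4.87 against -0.217 over all genes, after scaling of the arrays. The part of probe brightness in the narrower intervals and smaller changes was not tested, so these contrasts may not be particular to the respiratory chain. Estimated changes exceeded 1.2-fold for 2 members (2.17%), Ndufa4l2 and Cox7a1, against 17.4% of all genes. Negative estimates were nevertheless more frequent than positive ones, 65 against 27, or 70.7% negative against 45.8% over all genes. Members share samples and scaling and are not independent, so this share is a description.

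**Figure D1:**
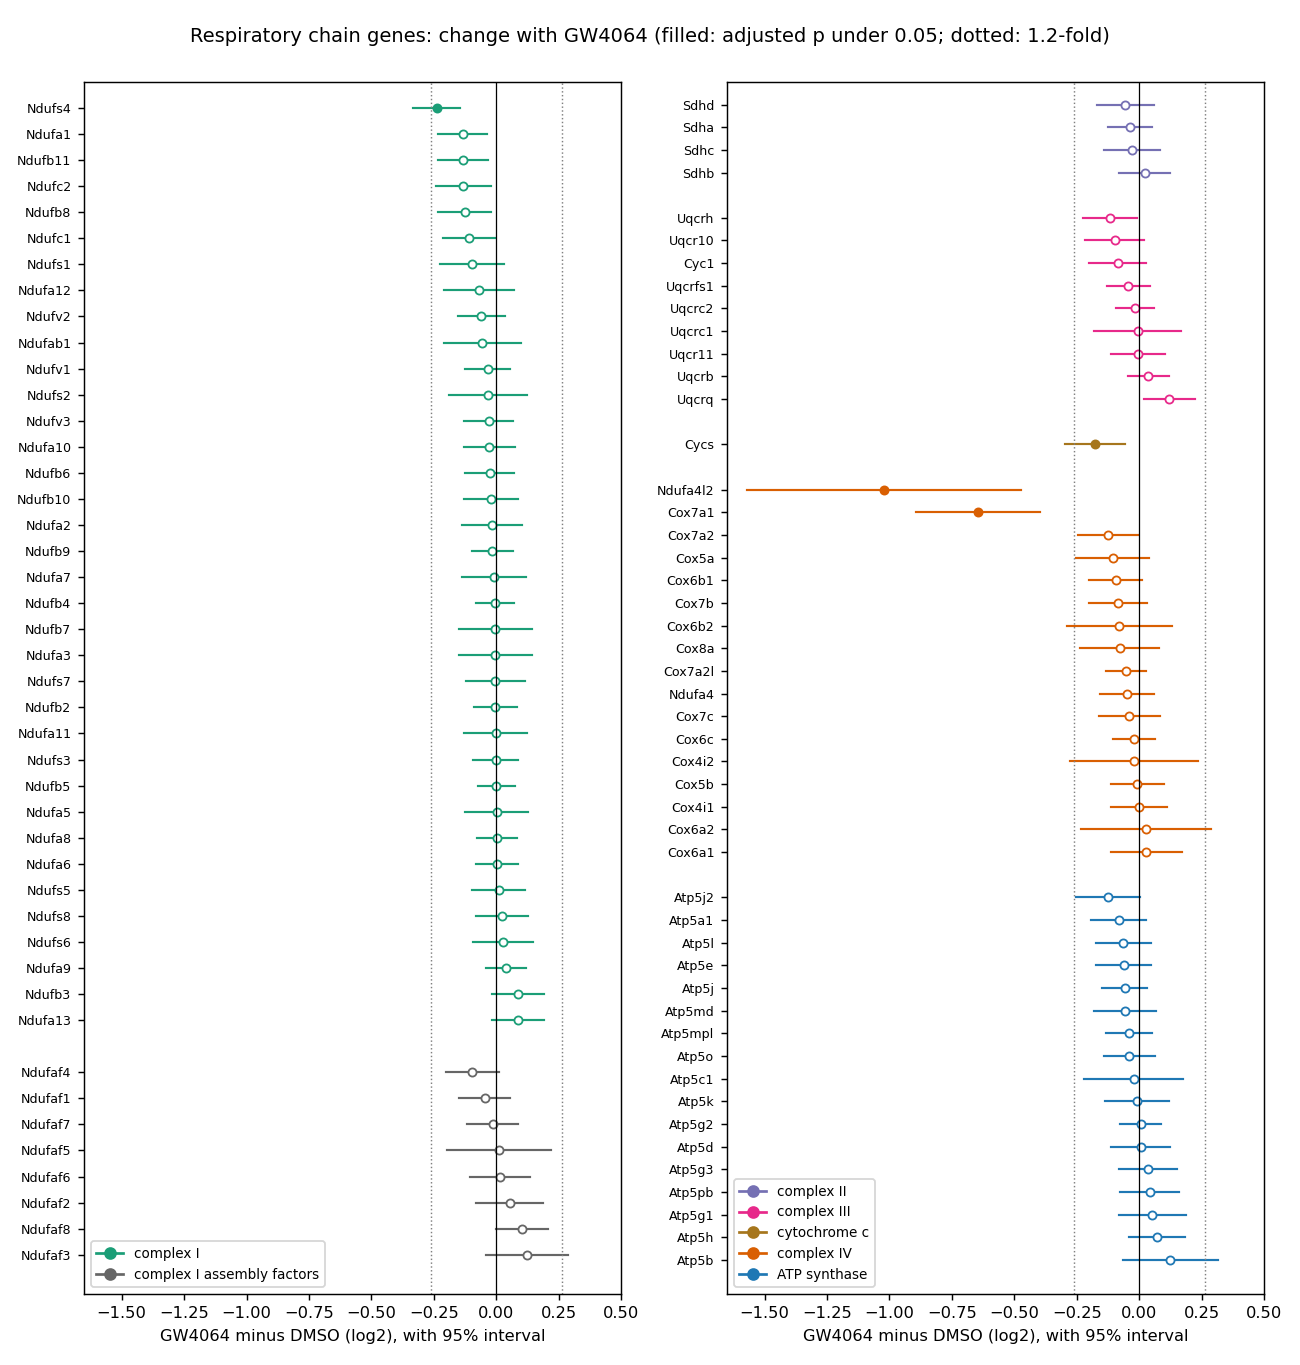
Log2 fold change (GW4064 minus DMSO, x axis) of each of the 92 genes with its 95% interval from limma, grouped by complex; filled points passed an adjusted p of 0.05 and dotted lines mark 1.2-fold. The 4 filled points, Ndufs4, Cycs, Ndufa4l2 and Cox7a1, all lie to the left of 0, and most other intervals lie between the dotted lines.

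Levels below are log2 signal minus the array's 75th percentile, and are comparable between samples for 1 probe but not between probes. Ndufs4 encodes an accessory subunit at the NADH-oxidising end of complex I, needed for stable assembly of that end. Its levels were 3.71, 3.83, 3.72 and 3.83 in DMSO replicates 1 to 4 and 3.57, 3.53, 3.52 and 3.52 in GW4064 replicates 1 to 4. Every GW4064 sample lay below every DMSO sample, and the treated samples spread over a narrower range than the controls. The log2 fold change was -0.24 ± 0.04 (SE, n = 4 per group), or 1.18-fold lower, with limma's adjusted p = 0.00518, and it was -0.23 on slide 1 and -0.25 on slide 2.

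Cycs encodes somatic cytochrome c, the soluble carrier between complexes III and IV that also takes part in apoptosis when released. With its brightest probe, levels were 5.39, 5.50, 5.29 and 5.42 with DMSO and 5.29, 5.16, 5.23 and 5.21 with GW4064. The groups met at DMSO replicate 3 and GW4064 replicate 1. The log2 fold change was -0.18 ± 0.05 (SE, n = 4 per group), with limma's adjusted p = 0.0472, close to the threshold. It was -0.22 on slide 1 and -0.13 on slide 2. Leaving out any 1 array other than DMSO replicate 3 raised the adjusted p to between 0.0560 and 0.120, and with slide as a block it was 0.0567. A second Cycs probe gave 2.85, 3.01, 2.78 and 2.95 with DMSO and 2.62, 2.62, 2.67 and 2.51 with GW4064, so its groups did not overlap. Its log2 fold change was -0.29 ± 0.06 (SE), with an adjusted p of 0.0155 when limma was run on every probe separately. In that run the brightest Cycs probe had an adjusted p of 0.0631 and did not pass.

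Cox7a1 encodes the isoform of complex IV subunit VIIa that is typical of heart and skeletal muscle. Its levels were 2.04, 2.10, 1.71 and 1.94 with DMSO and 1.47, 1.37, 1.07 and 1.30 with GW4064. All treated samples were below all controls, and the lowest sample of each group lay on slide 2. The log2 fold change was -0.65 ± 0.11 (SE, n = 4 per group; limma's adjusted p = 0.00428), and it was nearly the same on both slides, -0.65 and -0.64.

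Ndufa4l2 encodes a paralog of the complex IV subunit Ndufa4 and is a known target of hypoxia-inducible factors. Its levels were -2.23, -2.12, -3.21 and -2.56 with DMSO and -3.31, -3.67, -3.85 and -3.36 with GW4064. The groups did not overlap, but DMSO replicate 3 came close to GW4064 replicate 1. The log2 fold change was -1.02 ± 0.24 (SE, n = 4 per group), or 2.03-fold lower, with limma's adjusted p = 0.0192. The slides gave -1.32 (slide 1) and -0.72 (slide 2), and DMSO replicate 3 lay on the latter. Without GW4064 replicate 2 the adjusted p was 0.0529 (log2 fold change -0.98) and without GW4064 replicate 3 it was 0.0506 (-0.92).

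**Figure D2:**
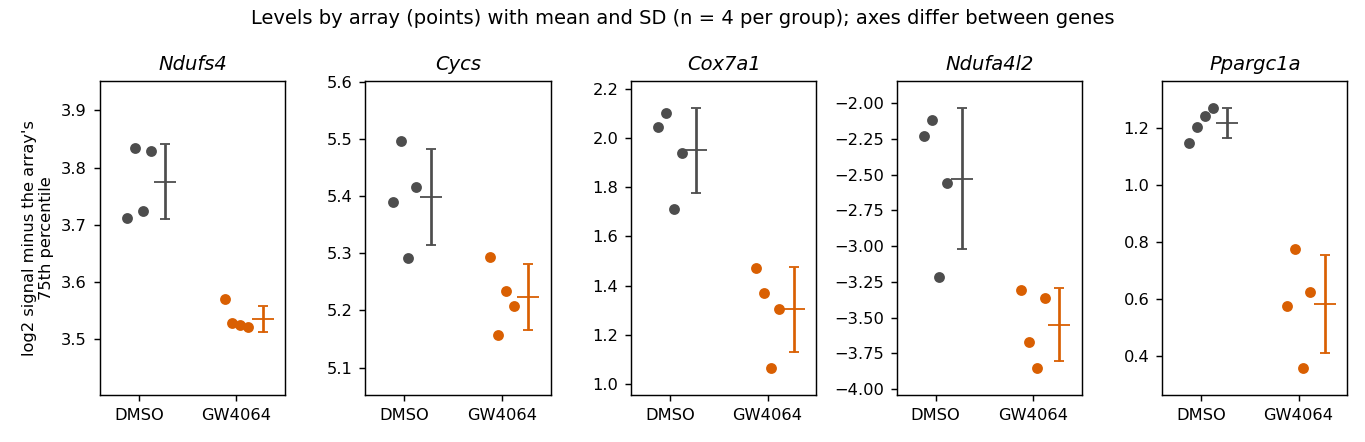
Level in each sample (y axis, log2 signal minus the array's 75th percentile) of the 4 respiratory chain genes that fell and of Ppargc1a, a regulator of mitochondrial genes; bars give the mean and SD of 4 samples per group, and each gene has its own scale. Treated samples lie below all controls for every gene shown except Cycs, where DMSO replicate 3 meets GW4064 replicate 1.

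Promoter sequence was printed for those of the 4 genes that the RefSeq promoter table (mouse assembly GRCm38.p6) holds, to show which known elements the genes that fell do and do not share. Each sequence is the 250 bases before the annotated start, read 5′ to 3′ on the gene's strand, with matches in capitals. Cycs lies on the minus strand (chr6:50566570-50566819), Ndufs4 on the minus strand (chr13:114388095-114388344) and Cox7a1 on the plus strand (chr7:30183921-30184170).
Cycs: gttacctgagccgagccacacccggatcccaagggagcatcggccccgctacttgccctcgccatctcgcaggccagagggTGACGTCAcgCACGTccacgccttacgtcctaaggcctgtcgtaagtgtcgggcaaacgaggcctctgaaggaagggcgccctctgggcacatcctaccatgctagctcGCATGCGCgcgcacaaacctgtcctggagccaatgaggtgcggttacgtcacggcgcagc
Ndufs4: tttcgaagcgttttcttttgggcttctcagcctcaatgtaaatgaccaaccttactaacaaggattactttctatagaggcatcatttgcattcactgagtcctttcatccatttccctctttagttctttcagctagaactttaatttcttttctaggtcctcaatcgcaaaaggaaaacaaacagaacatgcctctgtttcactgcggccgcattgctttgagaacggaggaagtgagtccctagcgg
Cox7a1: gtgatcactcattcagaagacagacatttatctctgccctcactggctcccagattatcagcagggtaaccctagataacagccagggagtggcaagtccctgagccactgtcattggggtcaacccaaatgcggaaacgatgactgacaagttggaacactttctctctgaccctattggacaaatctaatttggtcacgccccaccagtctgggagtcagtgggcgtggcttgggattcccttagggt
Capitals mark the 3 matches found in Cycs. They are, in the order printed, the cyclic AMP response element TGACGTCA at 169 to 162 bases before the start, the hypoxia response core ACGTG on the opposite strand (printed as CACGT) at 159 to 155 bases, and the core GCATGCGC of the site for nuclear respiratory factor 1 at 60 to 53 bases. No searched motif was found in the Ndufs4 and Cox7a1 windows.

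Over the whole set, 75 of the 92 genes matched the table, with 80 promoters, and motifs were searched on both strands of the same window. Nuclear respiratory factor 1 is a known activator of respiratory chain genes, and its core GCATGCGC was present in 12.5% of member promoters (10 genes), against 3.75% of promoters of all tested genes and 2.25% of all promoters in the table. The cyclic AMP response element TGACGTCA was present in 6.25% (5 genes), against 2.41% and 1.55%. The estrogen-related receptor element AAGGTCA was also present in 6.25% (5 genes), against 3.26% and 4.08%. ACGTG was present in 20% (15 genes), against 20.4% and 16.6%, and can lie within longer elements. The FXR inverted repeat (AGGTCA and its reverse complement with 1 base between them) was found in 0 member promoters, 0 promoters of tested genes and 0.00609% of all promoters, so the search for its exact letters is uninformative for these genes. The 10 genes with the nuclear respiratory factor 1 core, of which Cycs is 1, had a median log2 fold change of -0.00043.

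In complex I, 36 subunits were tested, and apart from Ndufs4 none passed. The median log2 fold change was -0.01 and the estimates ran from -0.24 to 0.09, with 27 of 36 negative. The 95% interval lay within 1.2-fold for 35 of the 36. The 7 nuclear-encoded core subunits, which carry the flavin and the iron-sulfur clusters, ranged from -0.10 (Ndufs1, limma's adjusted p = 0.252) to 0.02 (Ndufs8). Ndufv1, which binds NADH and the flavin, had a log2 fold change of -0.03. Ndufa13, an accessory subunit also known as Grim19, had the highest estimate of the complex (0.09, limma's adjusted p = 0.216).

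Beyond Ndufs4, the groups did not overlap for the complex I accessory subunits Ndufa1, Ndufb11 and Ndufc2, which are named after their values were seen. Their log2 fold changes were -0.13 each, with adjusted p in limma of 0.0596, 0.0676 and 0.0914. Ndufa1, for example, measured 5.02, 5.13, 4.98 and 5.02 with DMSO and 4.95, 4.88, 4.93 and 4.86 with GW4064. Among the 92 genes 8 had no overlap between groups, against 26.2% of all genes tested. The others were Ndufs4, Cox7a1, Ndufa4l2, Cox7a2l and, in the higher direction, Uqcrq. This count rests on the brightest probe of each gene. Other kept probes of Ndufb11, Cox7a2l and Uqcrq had overlapping groups.

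The 8 complex I assembly factors of the Ndufaf series, which help build the complex but are not part of it, had a median log2 fold change of 0.01, and none passed. Ndufaf4 was lowest (-0.10, limma's adjusted p = 0.189) and Ndufaf3 highest (0.12, adjusted p = 0.273). Ndufaf3 was 0.24 higher on slide 1 and 0.0028 on slide 2. Without GW4064 replicate 4, which was low for this gene, its log2 fold change was 0.19 with limma's adjusted p = 0.0174, the only rise of a member past the threshold among the settings tried.

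Complex II (succinate dehydrogenase) is wholly nuclear-encoded, and its 4 subunits did not pass. Sdha, the flavoprotein that oxidises succinate, had a log2 fold change of -0.04 ± 0.04 (SE, n = 4 per group), and Sdhb, the iron-sulfur subunit, 0.02 ± 0.05. The membrane anchors Sdhc and Sdhd had -0.03 and -0.06. All 4 intervals lay within 1.2-fold.

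The 9 complex III subunits had a median log2 fold change of -0.02, none passed and all 9 intervals lay within 1.2-fold. Among the catalytic subunits, Cyc1 (cytochrome c1) had -0.09 and Uqcrfs1, the Rieske iron-sulfur protein, -0.04. Uqcrc1, a core protein, had -0.0063. The small subunits took the extremes. Uqcrh, the hinge protein that contacts cytochrome c1, was lowest at -0.12 (limma's adjusted p = 0.124). Uqcrq, a small membrane subunit, was highest at 0.12 (adjusted p = 0.0946), with levels of 5.97, 6.01, 5.92 and 5.84 with DMSO and 6.06, 6.09, 6.02 and 6.05 with GW4064. With this probe, its brightest, the treated samples all lay above the controls. With its second kept probe the groups overlapped (log2 fold change 0.10).

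Complex IV held 2 of the 4 genes that fell and the widest range of estimates, from -1.02 to 0.03, with 14 of 17 negative and a median of -0.05. Over all genes tested 8.95% fell, and 2 among 17 is close to that share. Leaving aside Ndufa4l2 and Cox7a1, which were singled out after their values were seen, the other 15 ranged from -0.13 (Cox7a2) to 0.03 (Cox6a1), with a median of -0.05. Cox5a and Cox5b, nuclear subunits that do not come as tissue isoforms in mammals, had log2 fold changes of -0.11 (limma's adjusted p = 0.281) and -0.0076. Cox8a, the common form of subunit VIII, had -0.08, whereas its muscle-type counterpart Cox8b and the testis-type Cox8c were not well above background on any array.

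Isoform pairs were compared within each array, as the log2 level of the variant minus that of the common form, which removes the scaling of the array. The value itself mixes probe brightness with abundance, so only its change between groups is given. With exact two-sided permutation tests on 4 against 4 samples, the smallest possible p is 0.0286. Over the 5 pairs tested, 2 reached it. The Cox7a1 minus Cox7a2 difference was -2.51, -2.58, -2.79 and -2.63 with DMSO and -3.05, -3.10, -3.38 and -3.06 with GW4064. The groups did not overlap, and the change was -0.52 ± 0.10 (SE; 95% interval -0.76 to -0.28; exact permutation p = 0.0286, adjusted p = 0.0714). Cox7a2, the form found in most tissues, had a log2 fold change of -0.13 on its own (limma's adjusted p = 0.127). Cox7a2l, a related protein linked to supercomplexes of complexes III and IV, had -0.05 (limma's adjusted p = 0.316). With its brightest probe its groups did not overlap, and with its other kept probes they did.

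The Ndufa4l2 minus Ndufa4 difference was -6.44, -6.36, -7.33 and -6.76 with DMSO and -7.45, -7.73, -8.03 and -7.57 with GW4064. These groups did not overlap either, and the change was -0.97 ± 0.25 (SE; 95% interval -1.59 to -0.35; exact permutation p = 0.0286, adjusted p = 0.0714). Ndufa4 alone had a log2 fold change of -0.05 (limma's adjusted p = 0.501). Both of these pairs contain a gene already called above, so their falls repeat that result relative to the partner and add no independent evidence.

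The other 3 pairs showed no such shift. Cox4i2, the lung-type and oxygen-regulated form of subunit IV, relative to Cox4i1 changed by -0.02 (95% interval -0.27 to 0.23; exact permutation p = 0.886). Cox6a2, the muscle form of subunit VIa, relative to Cox6a1 changed by -0.0021 (-0.27 to 0.27; exact permutation p = 1). Cox6b2, the testis form of subunit VIb, relative to Cox6b1 changed by 0.01 (-0.28 to 0.31; exact permutation p = 0.886). These intervals are several times wider than the estimates. Cox4i1 itself measured 6.48, 6.37, 6.39 and 6.27 with DMSO and 6.38, 6.42, 6.37 and 6.36 with GW4064, with fully overlapping groups and a log2 fold change of 0.00 (95% interval -0.11 to 0.11).

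**Figure D3:**
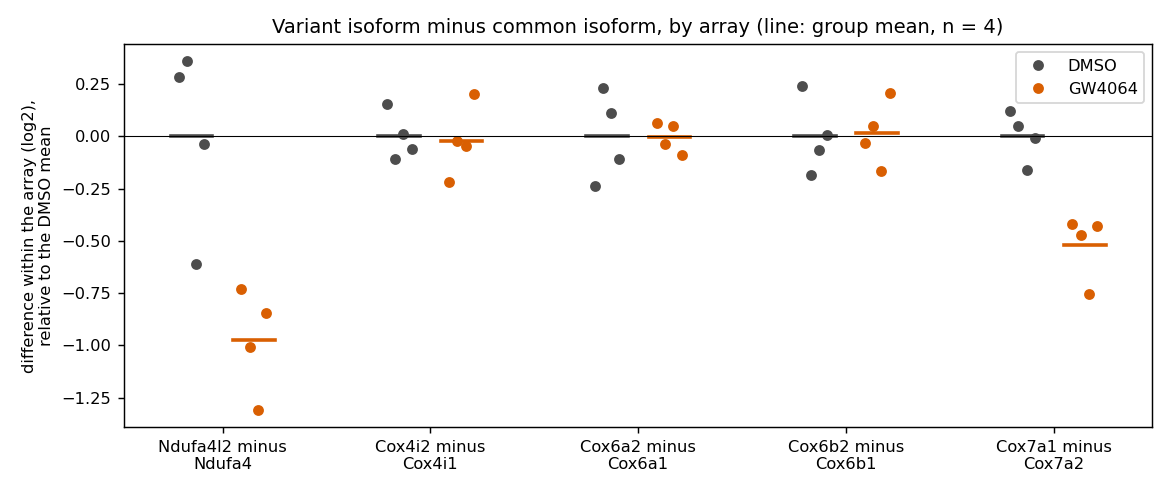
Difference in log2 level between the variant and the common isoform within each array (y axis, shifted so that the DMSO mean of each pair is 0), with 4 samples per group as points and the group means as lines. The GW4064 samples lie below all DMSO samples for Ndufa4l2 minus Ndufa4 and Cox7a1 minus Cox7a2, and the groups overlap for the other 3 pairs.

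None of the 17 ATP synthase genes passed, and their median log2 fold change was -0.02, with 10 negative. In the catalytic head, Atp5a1 (alpha subunit) had -0.08 (limma's adjusted p = 0.260) and Atp5b (beta subunit) 0.12 (adjusted p = 0.334), the highest of all 92 genes, with -0.01 on slide 1 and 0.26 on slide 2. The 3 genes of the proton-carrying c ring, Atp5g1, Atp5g2 and Atp5g3, ranged from 0.0049 to 0.05. The 4 peripheral stalk genes ranged from -0.06 to 0.07. By their brightest probes all 5 small membrane subunits had negative estimates, from -0.13 (Atp5j2, limma's adjusted p = 0.158) to -0.0082 (Atp5k), with a median of -0.06. The second kept probe of Atp5k had a positive estimate, 0.04.

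The scaling of the arrays mattered for how many of these genes passed. When each array was brought to 1 common distribution (quantile normalization), 10 of the 92 genes fell and 0 rose, against 20.8% of all genes called, 10.3% lower. The 10 were the 4 named above and Ndufa1, Ndufb8, Ndufb11, Uqcrh, Cox5a and Cox8a. The median log2 fold change moved from -0.02 to -0.05, and negative estimates from 65 to 79 of 92, while the median over all genes moved from 0.01 to -0.00057. By complex, the quantile medians were -0.04 for complex I, -0.03 for complex II, -0.04 for complex III, -0.09 for complex IV and -0.05 for the ATP synthase. Cox5a shows the size of the shift, from -0.11 to -0.20 (limma's adjusted p = 0.0235 after quantile normalization), and Cox8a moved from -0.08 to -0.18 (0.0242). The median of the 92 genes was also negative with median centring (-0.04) and in the authors' log2 table (-0.05). Background correction with normexp as first planned gave a median of 0.11 and 0 calls, with a fit that failed on DMSO replicate 3. With the marked local backgrounds replaced, an alternative chosen after seeing the data, the median was -0.03, with 68 of 92 estimates negative and 4 calls.

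Means by array are given here for complex IV, where the controls differed between the slides. For complex IV, the mean deviation of its 17 genes from their own average was 0.15, 0.15, -0.01 and -0.0070 with DMSO and -0.06, -0.05, -0.11 and -0.06 with GW4064, under the 75th percentile. The controls of slide 1 were high and those of slide 2 lay closer to the treated samples. For the 15 complex IV genes other than Ndufa4l2 and Cox7a1, the mean was 0.09, 0.08, -0.0085 and -0.06 with DMSO and -0.03, -0.00074, -0.04 and -0.02 with GW4064, and the groups overlapped. On slide 1 they had a median log2 fold change of -0.10, and on slide 2 of 0.03. Over all 92 genes the medians were -0.03 on slide 1 and -0.0080 on slide 2.

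**Figure D4:**
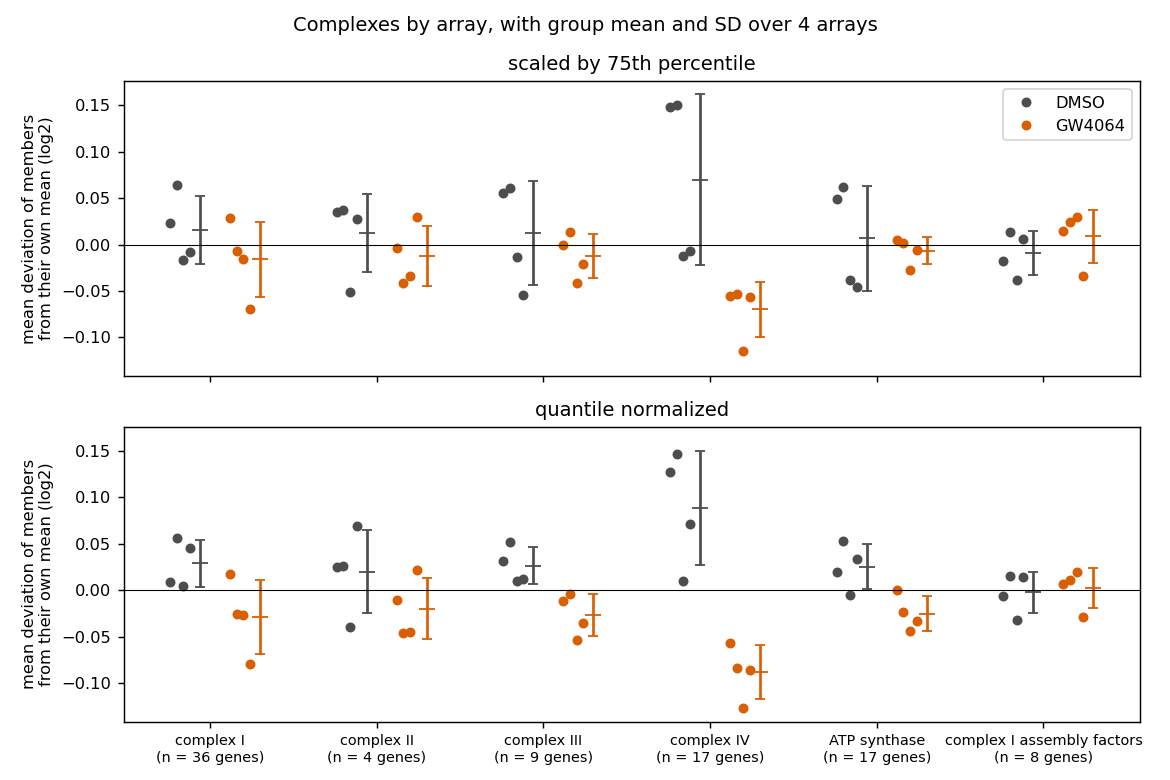
Mean deviation of the genes of each complex from their own average over 8 arrays (y axis, log2) by sample, scaled by the 75th percentile (upper panel) or quantile normalized (lower panel); bars give the mean and SD of 4 samples per group, and cytochrome c, a single gene, is not shown. The complex IV means differ by -0.14 (75th percentile) and -0.18 (quantile), and by -0.05 under the 75th percentile without Ndufa4l2 and Cox7a1, and the DMSO samples of complex IV fall into a high pair (slide 1) and a lower pair (slide 2), more clearly under the 75th percentile.

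Genes around the respiratory chain were counted in the same limma fit, from lists of textbook pathway members that were drawn up with earlier results of these data known. The counts of each list are to be read against all genes tested, of which 11.8% rose and 8.95% fell. Of 36 further assembly factors tested, 2 fell and 0 rose, with a median log2 fold change of 0.01. Both act on complex IV, as do other listed factors that did not pass, such as Cox10 and Cox11. Coa6, which helps deliver copper to it, measured 1.73, 1.83, 1.71 and 1.81 with DMSO and 1.57, 1.57, 1.58 and 1.59 with GW4064. Its groups did not overlap, and its log2 fold change was -0.19 ± 0.04 (SE; limma's adjusted p = 0.00929). Cox18, which inserts part of a core subunit into the membrane, had -0.16 ± 0.04 (adjusted p = 0.0184).

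Of 16 regulators of mitochondrial biogenesis, 2 fell and 1 rose, with a median of -0.0040. Ppargc1a encodes the coactivator PGC-1alpha, a known driver of respiratory chain transcription. It measured 1.15, 1.21, 1.24 and 1.27 with DMSO and 0.57, 0.77, 0.36 and 0.62 with GW4064, far apart relative to the spread in either group. Its log2 fold change was -0.63 ± 0.08 (SE, n = 4 per group; limma's adjusted p = 0.00118), or 1.55-fold lower. Sirt3, a mitochondrial deacetylase, fell by 0.14 (adjusted p = 0.0433), and Nrip1, a corepressor known to repress oxidative genes, rose by 0.17 (adjusted p = 0.0223). The call held in 9 of 24 processing alternatives for Sirt3 and in 14 of 24 for Nrip1, against 21 of 24 for Ppargc1a. The factors through which PGC-1alpha is known to act did not pass, among them Nrf1 (-0.02), Gabpa (-0.01), Esrra (0.03) and the mitochondrial transcription factor Tfam (0.03). Its relative Ppargc1b had 0.12 and did not pass.

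Of 18 genes of the tricarboxylic acid cycle and pyruvate dehydrogenase, 1 fell and 0 rose. That was Idh2, the NADP-dependent mitochondrial isocitrate dehydrogenase, with -0.18 (limma's adjusted p = 0.0269). Its change was -0.25 on slide 1 and -0.10 on slide 2, and its call held in 12 of 24 alternatives. Of 16 mitochondrial carriers and porins, 1 rose and 0 fell. The dicarboxylate carrier Slc25a10 measured -0.89, -0.88, -0.96 and -1.01 with DMSO and -0.41, -0.37, -0.55 and -0.47 with GW4064, a log2 fold change of 0.48 ± 0.05 (SE; adjusted p = 0.000424). Of 77 mitochondrial ribosomal proteins, 1 rose and 2 fell (log2 fold changes of 0.13 for Mrpl40, -0.13 for Mrps6 and -0.12 for Mrpl42), and the median was 0.01. Most alternatives ended these calls, which held in 8 of 24 for Mrpl40 and Mrps6 and in 7 of 24 for Mrpl42. None of the 13 mitochondrially encoded transcripts matched a probe by symbol, so the core subunits made inside the organelle were not analysed here.

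Of 11 oxygen-linked mitochondrial genes tested, 4 fell and 0 rose, with a median log2 fold change of -0.18. Over all genes tested 8.95% fell, and the median was 0.01. The falls of Mgarp and Bnip3l were known when this list was drawn up, so its count is not independent evidence of its direction. Besides Ndufa4l2, already counted above, these were Mgarp, Bnip3l and Higd1a. Mgarp, a mitochondrial outer membrane protein induced by hypoxia, measured -2.20, -2.79, -3.34 and -2.43 with DMSO and -4.24, -4.79, -5.36 and -4.00 with GW4064, with a log2 fold change of -1.91 ± 0.34 (SE; limma's adjusted p = 0.00558). The mitophagy receptor Bnip3l had -0.34 (adjusted p = 0.00670) and Higd1a, which binds complex IV, -0.18 (adjusted p = 0.0425). Pdk1, the kinase that inhibits pyruvate dehydrogenase, had -0.52 and its adjusted p was 0.0747, so it did not pass. Estimates were positive for Lonp1 (0.13, limma's adjusted p = 0.0638) and Chchd2 (0.07), which did not pass either. Cox4i2, the member of this list that belongs to complex IV, did not pass, as given above.

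Probes gave a further view of precision. Of the 24 members with more than 1 kept probe, 14 had all probes in the same direction. When every probe was tested on its own, 4 of 123 member probes passed, all lower, against 15.4% of all probes tested. They were those of Ndufs4, Cox7a1 and Ndufa4l2 and the second probe of Cycs.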

How the data were processed

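Gene expression was measured on 8 one-colour arrays, 4 per group. The deposited scanner files hold spot intensity, which per the file headers Feature Extraction 10.7.3.1 had background-subtracted, and other columns of spot flags. Agilent Feature Extraction 10.7 and limma appear in the submitters' processing notes. The authors also deposited a table of log2 values, used as an alternative. Control spots (1377 of 44397) and marked outlier spots were left out, spots of a probe were averaged, and log2 intensity was taken minus the array's 75th percentile over 39429 probes. A probe was kept if well above background on at least 4 of 8 arrays, and its gene was named by accession through the RefSeq table of GRCm38.p6 (27234 probes matched). The brightest kept probe stood for a gene. The file headers name build mm9.

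The comparison used lmFit and eBayes of limma 3.58.1 (R 4.3.3) with Benjamini-Hochberg adjustment over all genes, and was checked on simulated data. Isoform pairs used exact permutation tests. Most genes were named by rule: members past the threshold, the extremes of each complex, isoform sets, core subunits and up to 3 called genes per list. Some others are said to be named after their values were seen. Further genes outside the rule are not marked so in the text, among them Higd1a, Pdk1, Lonp1, Chchd2, Nrf1, Gabpa, Esrra, Tfam, Ppargc1b, Cox10, Cox11 and Ndufs8. The members and lists were chosen with earlier results of these data known. Alternatives were normexp (offset 50, run on median spot signals), quantile normalization, median centring, 2 other filters, the mean of a gene's probes, each probe on its own, blocks for replicate, slide and scan date, each slide alone, a trended robust fit, array weights, the authors' own table and leaving out each array. The number of arrays limits the precision.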

Additional observations from a re-analysis of the deposited data

Results flagged for a closer look

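In 8 of the 114 groups of 4 samples examined (7.02%), 1 array stood apart from the other 3 by Dixon's criterion, which chance meets in about 1 of 20 groups. Among members, Ndufs4 was at 3.57 in GW4064 replicate 1, against 3.52 to 3.53 in the other treated samples, all still below the controls. Sdhd was at 4.66 in DMSO replicate 3 (others 4.79 to 4.82), Cox6b2 at 0.745 in DMSO replicate 1 (others 0.430 to 0.461) and Ndufaf3 at 1.09 in GW4064 replicate 4 (others 1.37 to 1.39). The mean deviation of the complex II genes was -0.051 in DMSO replicate 3 (others 0.03 to 0.04), and that of the complex IV genes was -0.11 in GW4064 replicate 3 (others -0.06 to -0.05). Outside the members, GW4064 replicate 4 stood apart for Idh2 at 4.78 (others 4.64 to 4.67) and for Sirt3 at 1.61 (others 1.71 to 1.72).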

How the results depend on the processing

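Over 24 alternatives, 990 of 1128 values for the 47 named genes stayed on the same side of the threshold. Direction was compared only where a gene passed in the main fit or in the alternative. Some estimates of genes that did not pass changed sign among the 990, for example Atp5a1, which ranged from -0.14 to 0.11. The count of 4 respiratory chain genes that passed became 10 after quantile normalization, 11 with the deposited table, 2 on slide 1 alone and 0 on slide 2 alone, and lay between 2 and 4 when 1 array was left out. All genes called (3006) became 966 and 220 on the slides alone and 2076 to 2827 when 1 array was left out. The 14 genes called on the mitochondrial lists became 8 with median centring and with no filter, 9 with every probe tested on its own, 4 and 0 on the slides alone, 29 with array weights, 26 with a trended robust fit and 6 to 22 when 1 array was left out. The complex II median was 0.0055 on slide 2 alone, and that of the complex I assembly factors lay between -0.020 and 0.029 when 1 array was left out.

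With the replicate number as a replicate block, 3 members, 2322 genes and 9 genes of the mitochondrial lists passed. Deviations of same-numbered samples from their group means correlated at -0.13, -0.03, 0.19 and -0.02. Differently numbered samples were not compared, so these values do not settle whether the numbers pair the samples.

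Normexp as planned gave 0 members, 119 genes (80 higher, 39 lower) and 0 list genes, with medians of 0.11 for all members, 0.13 for complex I, 0.079 for its assembly factors, 0.10 for complex II, 0.13 for complex III, 0.032 for Cycs, 0.062 for complex IV and 0.15 for the ATP synthase; Cycs reversed to 0.032 (limma's adjusted p = 0.931, over alternatives 0.0168 to 0.931). On DMSO replicate 3 its fitted background was -1089 against -15.5 to -3.81 elsewhere, and 6 spots there lay far below their local background. With marked local backgrounds replaced, chosen after seeing the data, it was -9.63, and 4 members (3 of them shared) and 2196 genes passed. Cycs kept its call in 7 alternatives, Ndufa4l2 in 20, Ndufs4 in 21 and Cox7a1 in 22.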
